A study of Mus musculus with 18 samples.

Results

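Genes that encode the vascular basement membrane carried 76 of the 47338 accessible chromatin regions that were found in mouse lung endothelial cells (ECs). The 10 genes were Col4a1, Col4a2, Hspg2, Lama4, Lama5, Lamb1, Lamc1, Nid1, Nid2 and Sparc. Accessible regions were built by merging the nuclear ATAC-seq peaks of all 18 samples and keeping every merged region with a peak in at least 2 samples. A region was given to one of these genes when its midpoint lay nearest to the transcription start site (TSS) of that gene, which held for 69 regions, or when it lay within the gene body, which added 7.

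The basement membrane is the thin sheet of matrix on which the endothelium of a capillary rests. It is built from a polymer of laminin heterotrimers and a covalently crosslinked network of collagen IV, which nidogens and the heparan sulfate proteoglycan perlecan hold together. In the alveolar septum it lies between the capillary endothelium and the alveolar epithelium, and ECs make much of its laminin α4 and α5, collagen IV and perlecan. SPARC is a secreted glycoprotein that binds collagen IV and takes part in its deposition.

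ATAC-seq marks open chromatin by the insertion of a transposase, and a peak is a site where inserted fragments pile up over the local background. Lung ECs were sorted from FVB mice carrying a Col1α1-GFP reporter as CD31-positive cells that lacked CD45, CD326 and GFP, so the sort pooled the endothelial subtypes of the lung. Young mice of 2 months and aged mice of 18 months received bleomycin at 1 U/kg or PBS, and lungs were taken at day 30. With 1 mouse per sample, 5 mice formed the Young Sham group (n = 5) and 4 the Young Bleo group (n = 4), whereas Aged Sham had 4 (n = 4) and Aged Bleo 5 (n = 5). The labels name no allele other than the reporter, which all groups share.

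The lists held 21050 to 40883 nuclear peaks per sample, with a median of 25 to 33 fragments at the summit of a peak and a lowest of 7 to 10. A site without a peak may therefore be open below the depth of its library. Between 43.0% and 80.4% of the regions had a peak in a given sample, and the Aged Bleo group spanned this whole range. Endothelial markers had a promoter peak in 5 to 8 of 8 genes per sample, with Cdh5, Kdr, Tie1, Erg and Cldn5 open in all 18 samples. None of 5 leukocyte and none of 5 epithelial markers had a promoter peak in any sample. Of the fibroblast markers Pdgfra alone was open, and of the mural cell markers Myh11 alone, both in all 18 samples. Sequencing lane moved with the groups: all Young Sham samples were in lane 8 with Young Bleo 4, lane 7 held Young Bleo 1 to 3 and Aged Sham 1 to 3, and lane 6 held Aged Sham 4 and all Aged Bleo samples. Age and lane thus cannot be told apart in any comparison of aged samples with Young Sham. Only Young Bleo 4 shared a lane with Young Sham, and only Aged Sham 4 shared a lane with Aged Bleo. Bleomycin and lane are therefore largely confounded at both ages. Aged Bleo and Young Bleo shared no lane.

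Presence of a peak was compared between groups, region by region, with Fisher's exact test (two-sided) and called at an unadjusted p of at most 0.05. Within-list strength was the percentile rank, from 0 to 100, of the fold enrichment of a region among all regions of the same sample, and was compared with limma and called at a Benjamini-Hochberg adjusted p of at most 0.05. Regions without a peak shared the bottom rank of their list. This rank was higher in shorter lists and ran from 9.81 to 28.5, and some peaks of low fold enrichment had strengths in this range too. Fragments are the number of sequenced fragments at the summit of the peak, recovered from the deposited values.

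The sequences of 8 regions are shown because these are the regions that differed in strength between Young Bleo and Young Sham, in presence in 2 or more comparisons, or in presence between Aged Bleo and Young Bleo. Each is the 200 bases around the strongest peak summit of the region, that of the sample with the highest -log10 p there. Bases are from the RefSeq mouse assembly GRCm38.p6 (mm10) on the plus strand. That reference is not the FVB strain, so bases of the mice studied may differ. Capitals mark matches to 4 short motifs, searched on both strands. The core of the ERG motif was taken as CAGGAAG, that of AP-1 as TGANTCA, that bound by GATA factors as AGATAAG and that of forkhead factors as TGTTTAC. No match shown overlaps another.
Hspg2 +9.71 kb, chr4:137478416-137478615: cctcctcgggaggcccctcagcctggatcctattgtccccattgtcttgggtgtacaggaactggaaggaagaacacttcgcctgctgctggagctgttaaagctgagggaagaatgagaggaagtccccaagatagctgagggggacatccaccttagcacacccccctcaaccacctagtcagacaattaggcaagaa
Hspg2 +20.3 kb, chr4:137488974-137489173: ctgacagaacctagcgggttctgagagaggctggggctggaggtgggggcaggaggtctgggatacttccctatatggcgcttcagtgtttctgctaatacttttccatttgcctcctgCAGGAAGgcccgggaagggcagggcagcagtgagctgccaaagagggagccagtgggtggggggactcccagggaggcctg
Col4a1 +40.4 kb, chr8:11272270-11272469: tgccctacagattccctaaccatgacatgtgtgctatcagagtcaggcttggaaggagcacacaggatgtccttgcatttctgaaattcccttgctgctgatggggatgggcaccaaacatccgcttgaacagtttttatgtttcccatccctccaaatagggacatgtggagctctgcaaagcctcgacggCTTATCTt
Col4a2 +80.2 kb, chr8:11392851-11393050: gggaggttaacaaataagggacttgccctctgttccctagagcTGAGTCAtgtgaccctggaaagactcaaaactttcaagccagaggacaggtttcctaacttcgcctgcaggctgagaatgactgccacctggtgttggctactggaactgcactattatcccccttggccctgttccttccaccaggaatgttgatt
Lama4 -49.3 kb, chr10:38916126-38916325: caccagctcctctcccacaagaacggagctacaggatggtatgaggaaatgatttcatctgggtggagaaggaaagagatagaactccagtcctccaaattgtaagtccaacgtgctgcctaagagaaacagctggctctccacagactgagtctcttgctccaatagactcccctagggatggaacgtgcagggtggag
Lama4 +15.6 kb, chr10:38981029-38981228: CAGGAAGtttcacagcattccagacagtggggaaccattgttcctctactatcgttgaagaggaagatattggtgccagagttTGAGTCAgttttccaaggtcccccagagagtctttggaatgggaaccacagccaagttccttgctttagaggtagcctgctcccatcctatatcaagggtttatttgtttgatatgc
Lama4 +19.2 kb, chr10:38984514-38984713: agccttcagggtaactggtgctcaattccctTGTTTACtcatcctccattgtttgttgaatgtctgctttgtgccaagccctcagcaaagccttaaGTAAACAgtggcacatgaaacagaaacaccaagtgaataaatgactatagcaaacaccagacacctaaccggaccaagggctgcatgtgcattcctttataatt
Nid1 +54.8 kb, chr13:13492293-13492492: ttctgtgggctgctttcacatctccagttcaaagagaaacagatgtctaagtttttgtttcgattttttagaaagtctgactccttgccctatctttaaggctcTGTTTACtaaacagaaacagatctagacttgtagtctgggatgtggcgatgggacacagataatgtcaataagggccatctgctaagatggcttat

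In these windows, the ERG core was found at Hspg2 +20.3 kb and at the first base of the Lama4 +15.6 kb window, which also held an AP-1 match. Forkhead matches lay in Lama4 +19.2 kb, where there were 2 on opposite strands, and in Nid1 +54.8 kb. An AP-1 match lay in Col4a2 +80.2 kb and a GATA match, on the minus strand, in Col4a1 +40.4 kb. The windows of Hspg2 +9.71 kb and Lama4 -49.3 kb held none of these letters.

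The 76 regions lay mostly inside the genes and were weaker than the average region. An intron held 55 of them (72.4%, against 36.9% of all regions), intergenic DNA 12 (15.8% against 34.9%) and a promoter, taken as the 1000 bp before a TSS and 100 bp after it, 7 (9.21% against 21.3%). Open in all 18 samples were 14 regions (18.4%), compared with 36.8% of all regions, and outside promoters 13% against 25.4%. Their median width was 391 bp and that of all regions 440 bp, and their median strength was 27.1 against 47.4. GC content was similar, with a median of 54.5% against 53%. Within the 200 bases around the summit, the ERG core was found in 19 regions (25% against 20% of all regions), AP-1 in 13 (17.1% against 8.63%), GATA in 9 (11.8% against 3.34%), forkhead in 4 (5.26% against 4.44%), the SP/KLF letters GGGCGG in 17 (22.4% against 25.2%) and the TEAD letters ACATTCCA in 1 (1.32% against 1.07%). These shares are descriptions and were not tested.

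**Figure D1:**
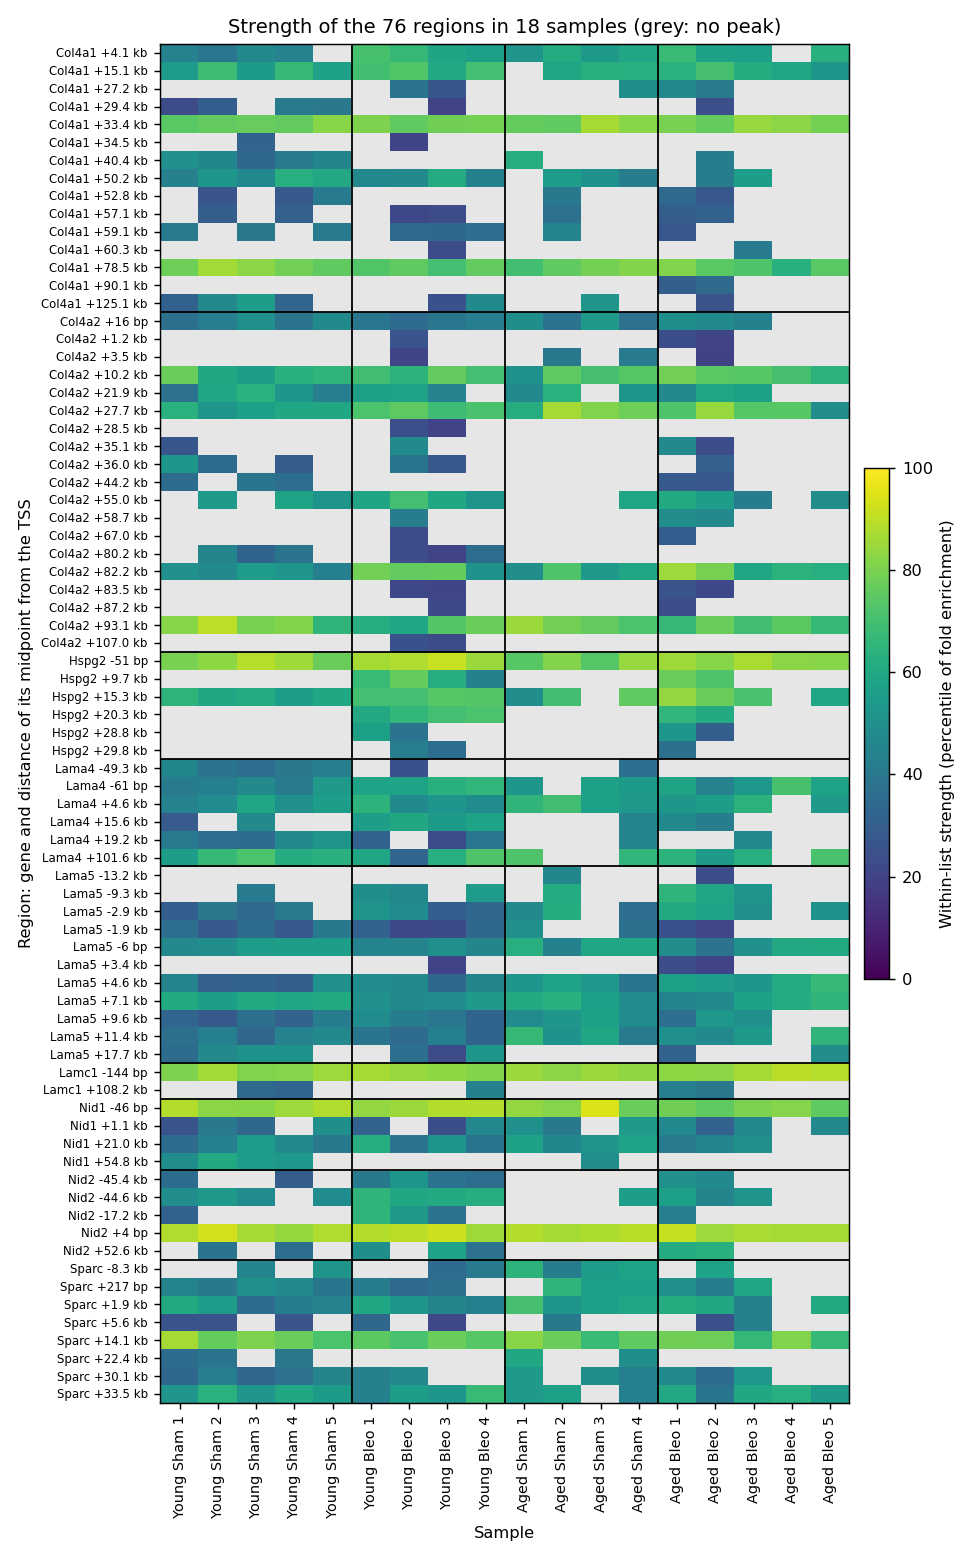
Within-list strength of the 76 regions (rows, by gene and by distance of the region's midpoint from the TSS) in the 18 samples (columns), on a colour scale from 0 to 100; grey cells have no peak. Promoters of Hspg2, Lamc1, Nid1 and Nid2 are bright in all samples, and the Hspg2 regions at +9.71 and +20.3 kb are filled in all 4 Young Bleo samples and in Aged Bleo 1 and 2.

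Aged Sham samples had a peak in fewer of these regions than Young Sham samples, a difference that did not pass the adjustment for 5 comparisons. Young Sham samples had a peak in 50, 49, 48, 50 and 40 of the 76 regions, Young Bleo samples in 45, 58, 58 and 45, Aged Sham samples in 33, 37, 29 and 42, and Aged Bleo samples in 58, 61, 38, 17 and 27. The Aged Sham and Young Sham ranges overlapped only through Aged Sham 4 and Young Sham 5, whereas Aged Bleo held both the highest and the lowest sample. Means were 47.4 ± 4.22 (SD, n = 5) in Young Sham and 35.2 ± 5.56 (SD, n = 4) in Aged Sham, which gave an exact two-sided permutation p of 0.0238 and an adjusted p of 0.119 over 5 comparisons. The other 4 comparisons gave exact permutation p-values from 0.286 to 0.643. The number of all regions with a peak moved in the same direction, from 34054 ± 3151 in Young Sham to 28012 ± 3371 in Aged Sham, with an exact permutation p of 0.0556. The part that list length plays in the count at these genes was not tested. Aged Bleo 1 and 2 were the longest lists of their group, with 76.7% and 80.4% of all regions called against 59.8%, 43.0% and 54.9% in Aged Bleo 3 to 5.

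**Figure D2:**
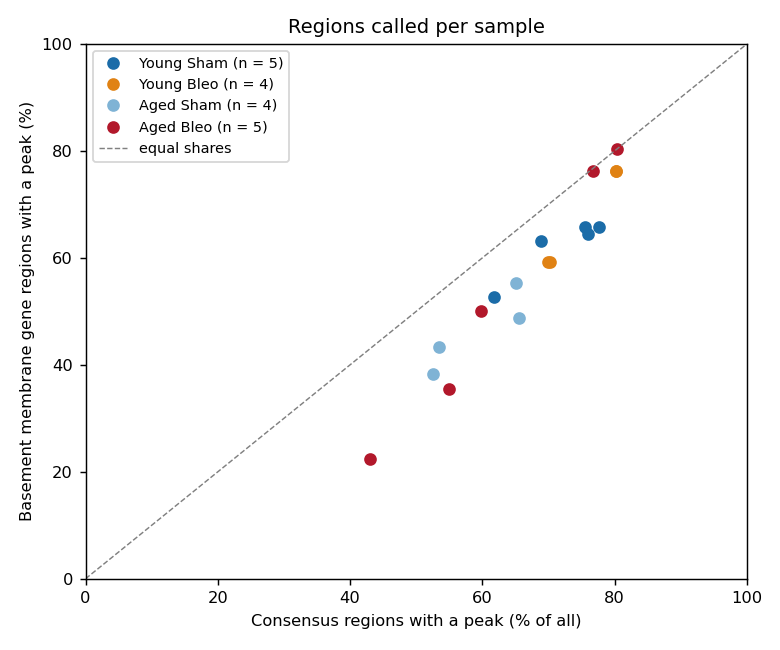
Share of the 76 basement membrane gene regions with a peak (y axis, %) against the share of all 47338 regions with a peak (x axis, %), 1 point per mouse, with the dashed line marking equal shares. Aged Bleo 1 and 2 and Young Bleo 2 and 3 lie near the line, and Aged Bleo 4, at 22.4% against 43.0%, lies farthest to the lower left.

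Col4a1 and Col4a2 encode the α1 and α2 chains that form the common collagen IV trimer. They are transcribed in opposite directions from one shared promoter, and together held 34 of the 76 regions. Col4a1 spans chr8:11198423-11312826 on the minus strand and Col4a2 chr8:11312805-11449287 on the plus strand, so that the annotated TSSs overlap head to head by a few bases. Of the 34 regions, 14 lay in the Col4a1 body, 18 in the Col4a2 body, 1 over the shared promoter and 1 beyond the 3′ end of Col4a1. Each gene had 15 regions by nearest TSS, as many as or more than 99.3% of genes. The nearest TSS is that of the partner gene for 28 of the 32 intronic regions and that of E230013L22Rik for the other 4, at Col4a2 +83.5, +87.2, +93.1 and +107 kb. Regions are named here by the gene that contains them.

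The shared promoter (chr8:11312567-11313075) was of middling strength. It was open in all 5 Young Sham, all 4 Young Bleo and all 4 Aged Sham samples and in 3 of 5 Aged Bleo samples, with mean strengths of 43.2, 39.1, 44.8 and 38.6 in that order. Aged Bleo 4 and 5 had no peak there, whereas Aged Bleo 2 had the most fragments, 101, and Aged Sham 1 the fewest, 13. The strongest site of each gene was intronic and open in all 18 samples. At Col4a1 +33.4 kb (chr8:11279131-11279752), peaks held 40 to 165 fragments with a median of 88, and at Col4a2 +93.1 kb (chr8:11405645-11406157) 17 to 67 with a median of 31. No contrast of strength was called at these 3 regions.

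Col4a1 +40.4 kb (chr8:11272252-11272531), an intronic region with the GATA match shown above, was open in all 5 Young Sham samples, with 24, 23, 13, 18 and 12 fragments. No Young Bleo sample had a peak there, and the region was open only in Aged Sham 1 (14 fragments) and Aged Bleo 2 (26 fragments) outside Young Sham. Fisher's exact test gave p = 0.00794 for Young Bleo against Young Sham and p = 0.0476 for both Aged Sham and Aged Bleo against Young Sham. Strength was lower in Young Bleo than in Young Sham by limma (difference -30.73, SE 7.88, adjusted p = 0.0328), and the call was lost when any 1 of Young Sham 1, 2, 4 or 5 or Young Bleo 1, 2 or 3 was left out (adjusted p from 0.0542 to 0.0863). It was also lost with peaks of a -log10 q or a fold enrichment of at least 5 (-25.88, adjusted p = 0.083, and -23.12, adjusted p = 0.0997) and with ranks taken within the peaks of each list (-20.83, adjusted p = 0.171). The difference was 0.00 with a common floor, in which all ranks up to 57, the percentage of regions without a peak in the shortest list, were tied in every sample. Wherever ranks lie below 57, this setting removes the differences between them. Within lane 8, the 5 Young Sham samples had the peak and Young Bleo 4 did not.

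Other regions of the locus that passed a test did so with few peaks. Col4a1 +29.4 kb (chr8:11283300-11283579) was open in Young Sham 1, 2, 4 and 5 with 24, 35, 38 and 20 fragments, in Young Bleo 3 with 27, in Aged Bleo 2 with 47 and in no Aged Sham sample (exact Fisher p = 0.0476 for Aged Sham against Young Sham). Col4a2 +80.2 kb (chr8:11392743-11393184), with the AP-1 match, was open in Young Sham 2 to 4 with 25, 13 and 22 fragments, in Young Bleo 2 to 4 with 29, 19 and 21, and in none of the 9 aged samples. It was the only one of the 76 regions called between Aged Bleo and Young Bleo by presence (exact Fisher p = 0.0476). Against Aged Sham and Aged Bleo, the 3 open Young Sham samples of 5 did not reach the threshold.

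Col4a1 +90.1 kb (chr8:11222534-11222864) was open in Aged Bleo 1 and 2 alone, with 14 and 17 fragments. It was kept as a region only through these 2 peaks, so its higher strength in Aged Bleo follows from that choice and is given as a description, with no test. Strength was called higher at 2 more regions of this locus, where few samples had a peak. Col4a2 +83.5 kb was open in 2 Young Bleo and 2 Aged Bleo samples and differed by +9.61 between Aged Bleo and Young Sham (adjusted p = 0.024). Strength there was 25.5 and 21.5 in the open Aged Bleo samples and 20.1, 28.5 and 22.6 in those without a peak. The open samples thus lay within the range of those without a peak. At Col4a2 +107 kb, where neither group had a peak, bottom ranks alone gave +4.50. The part of the bottom ranks in the difference at Col4a2 +83.5 kb was not tested. With ranks taken within the peaks of each list that difference was +1.19 (adjusted p = 0.595). Col4a2 +3.52 kb, open in 2 of 4 Aged Sham and no Young Sham samples, differed by +18.15 between these groups (adjusted p = 0.0465) and by +5.11 (adjusted p = 0.205) with ranks taken within the peaks of each list. The Col4a2 +83.5 kb call was lost without Young Sham 1, 2 or 4 or Aged Bleo 1 (adjusted p from 0.0535 to 0.0644), and the Col4a2 +3.52 kb call when any sample other than Young Sham 5, Aged Sham 1 or 3 or Aged Bleo 1 or 4 was left out (0.0527 to 0.132). Both differences were 0.00 with the common floor, which lies above the peaks of these regions and so ties samples with and without a peak.

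**Figure D3:**
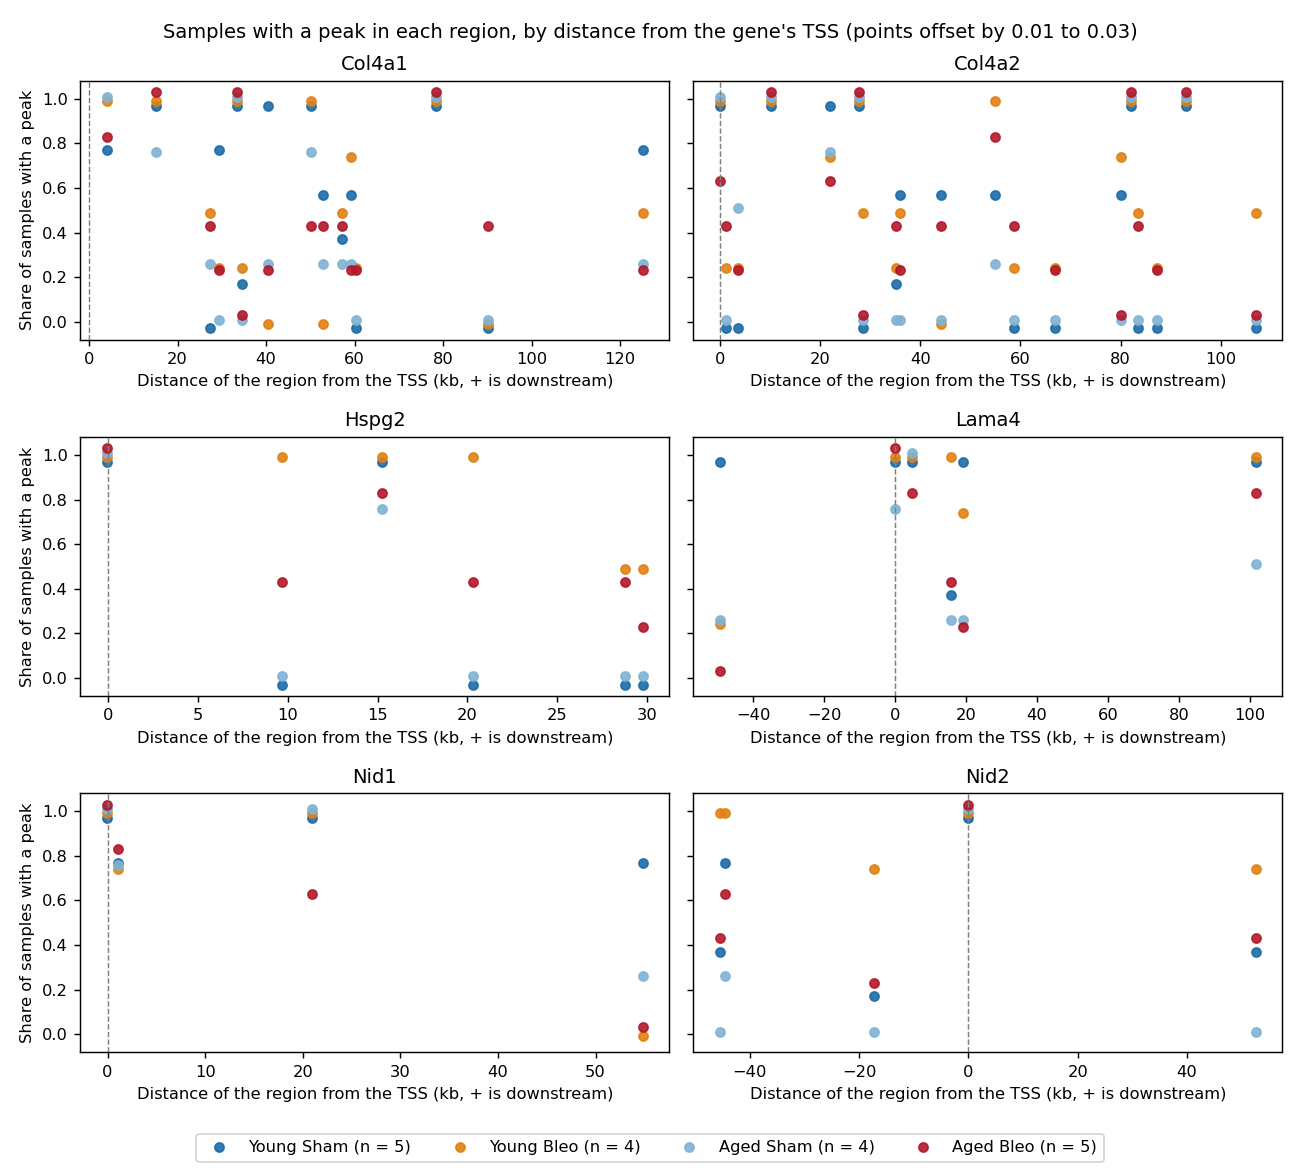
Share of the samples of each group with a peak (y axis, 0 to 1, groups offset by 0.01 to 0.03 so that points stay apart) against distance of the region from the TSS (x axis, kb) for 6 of the genes. At Hspg2 the Young Bleo points lie at 1 for +9.71 and +20.3 kb while both sham groups lie at 0, and at Nid1 +54.8 kb and Lama4 -49.3 kb the Young Sham points lie highest.

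Laminin α4, encoded by Lama4, is a chain of the laminin made by most blood vessel endothelium. Its gene (chr10:38965515-39110188, plus strand) held 6 regions, none of them open in all 18 samples. The promoter region (chr10:38965159-38965749) was open in all samples but Aged Sham 2, with 15 to 53 fragments in the others, and its strength was not called in any contrast. The strongest region, +102 kb inside the gene (chr10:39066947-39067356), has Fam229b as its nearest TSS and was open in 15 samples, with no peak in Aged Sham 2, Aged Sham 3 and Aged Bleo 4.

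Lama4 -49.3 kb (chr10:38916006-38916402), which lies between genes, had low peaks in all 5 Young Sham samples, with 15, 15, 12, 14 and 11 fragments. Outside this group it was open in Young Bleo 2 (11 fragments) and Aged Sham 4 (9 fragments) alone. Fisher's exact test gave p = 0.00794 for Aged Bleo and p = 0.0476 for both Young Bleo and Aged Sham against Young Sham. Its strength of 40.6 ± 3.82 in Young Sham (SD, n = 5) was above that of Young Bleo (limma difference -24.28, SE 4.37, adjusted p = 0.00468) and that of Aged Bleo (difference -22.03, SE 4.12, adjusted p = 0.00844). Both calls rest on peaks whose fragment numbers are close to the lowest of their lists. With peaks that cover at least 50% of the region, both calls were lost, at -17.95 (adjusted p = 0.105) for Young Bleo and -8.13 (adjusted p = 0.377) for Aged Bleo, and the 3 presence calls with them (exact Fisher p = 0.167 each). The Aged Bleo call was lost too with a fold enrichment of at least 5 (-14.27, adjusted p = 0.0511). Neither remained with the common floor, which lies above every peak of this region.

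Lama4 +15.6 kb (chr10:38980956-38981353), the intronic region with both an ERG core and an AP-1 match, moved the other way. All 4 Young Bleo samples had a peak, with 23, 28, 29 and 24 fragments. Young Sham 1 and 3 had 12 and 18 fragments, Aged Sham 4 had 13 and Aged Bleo 1 and 2 had 17 and 18, and the remaining samples had no peak. Each Young Bleo value thus lay above that of every other sample with a peak. Strength was 57.1 ± 2.27 in Young Bleo (SD, n = 4) and 23.8 ± 14.6 in Young Sham (SD, n = 5), a limma difference of +33.25 (SE 7.47, adjusted p = 0.0167), while presence alone did not pass (exact Fisher p = 0.167). Without Young Bleo 2 the adjusted p was 0.0509. The difference was +9.67 (adjusted p = 0.128) with the same number of peaks from each list and +0.91 (adjusted p = 0.395) with the common floor. That floor, at 57, lies above the Young Sham mean and at about the Young Bleo mean, so the setting could show little difference here. The interaction, the response of aged minus that of young lungs, was -28.47 with an adjusted p of 0.419.

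Lama4 +19.2 kb (chr10:38984437-38985064), with 2 forkhead matches, was open in all 5 Young Sham samples with 17, 15, 14, 18 and 14 fragments. Young Bleo 1, 3 and 4 had 12, 15 and 17 fragments, Aged Sham 4 had 13 and Aged Bleo 3 had 11. Aged Sham and Aged Bleo each had fewer peaks than Young Sham (exact Fisher p = 0.0476 for each), and no strength contrast was called. Both presence calls were lost with peaks that cover at least 50% of the region (exact Fisher p = 0.167 and 0.524) and with a fold enrichment of at least 5 (0.206 each). In lane 6, Aged Sham 4 had the peak and 1 of 5 Aged Bleo samples did.

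**Figure D4:**
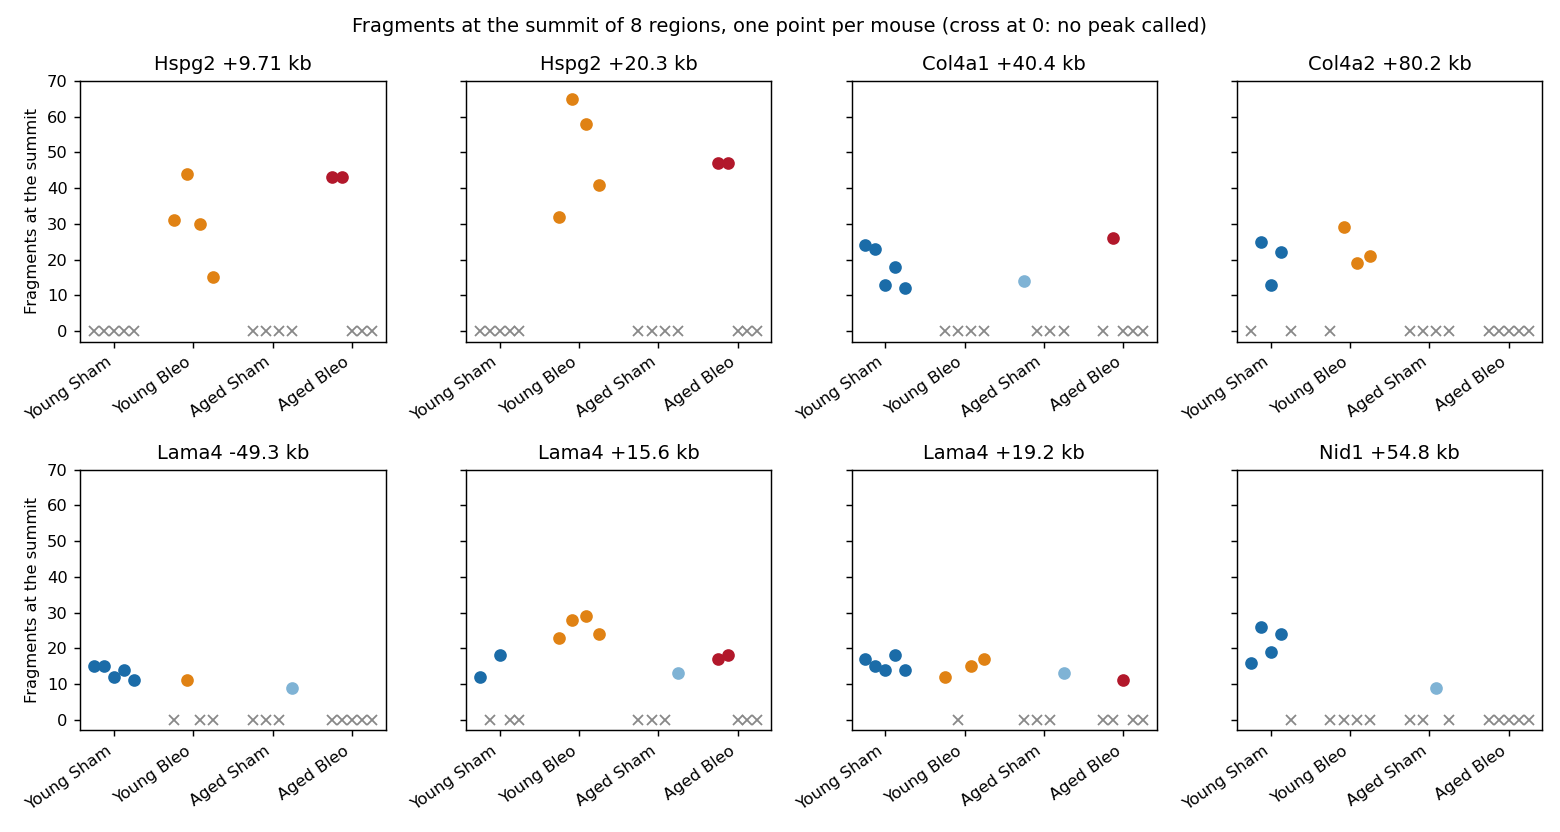
Fragments at the summit (y axis) of the 8 regions whose sequences are shown, 1 point per mouse and group; a cross at 0 marks a mouse with no peak, whose fragment number was not recovered and need not be 0. At Hspg2 +20.3 kb the 4 Young Bleo mice have 32 to 65 fragments and Aged Bleo 1 and 2 have 47, and at Lama4 +15.6 kb the Young Bleo mice lie above all other mice with a peak.

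Laminin α5, the other α chain of mature vascular laminin, is encoded by Lama5 (chr2:180176373-180225859, minus strand), which held 11 regions. Its promoter (chr2:180225644-180226087) was open in all 18 samples with 22 to 94 fragments, and so was its strongest region at +7.11 kb (chr2:180218407-180219100) with 23 to 149. An exonic region at +4.6 kb (chr2:180221064-180221463) was also open in all 18 samples. Its strength was 44.9, 30.5, 31.9, 30.1 and 50.2 in Young Sham and 56.7, 55.1, 53.0, 61.7 and 67.1 in Aged Bleo, with no overlap between the groups. The limma difference was +21.18 (SE 4.73, adjusted p = 0.0171), and it was +18.98 (adjusted p = 0.139) when ranks were taken within the peaks of each list. With the same number of peaks from each list it was +10.05 (adjusted p = 0.0654), with peaks that cover at least 50% of the region +15.67 (adjusted p = 0.112), and with the common floor +2.93 (adjusted p = 0.433). That floor, at 57, lies above every Young Sham value and some Aged Bleo values here, so the setting could only narrow the difference. Without Young Sham 2 the limma difference was +19.42 (adjusted p = 0.0502).

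Lama5 +17.7 kb (chr2:180207977-180208311) was open in Young Sham 1 to 4 with 12, 18, 17 and 18 fragments and in no Aged Sham sample (exact Fisher p = 0.0476, and 0.167 with peaks that cover at least 50% of the region). Young Bleo 2 to 4 had 14, 11 and 18 fragments there, and Aged Bleo 1 and 5 had 12 and 10. Lama5 +3.42 kb was open in Young Bleo 3 and Aged Bleo 1 and 2, with 47, 55 and 54 fragments. It was kept as a region only through the 2 Aged Bleo peaks, so no test of Aged Bleo against another group is given for it.

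Laminin β1 and γ1, encoded by Lamb1 and Lamc1, are the partner chains that α4 and α5 share. No accessible region was found at Lamb1 (chr12:31265293-31329644). A single peak in Aged Bleo 1 (chr12:31299845-31299996) lay within the gene, with a fold enrichment of 5 and a -log10 q of 5.38, and no other sample had one. The nearest regions were 119 kb upstream, closest to the TSS of 6030469F06Rik and open in 9 samples, and 21.3 kb downstream, closest to Dld and open in 18. Lamc1 (chr1:153218922-153332786, minus strand) was the reverse case. Its promoter (chr1:153332344-153333517) was the widest of the 76 regions and had 110 to 244 fragments with a median of 192.5. Mean strength there was 83 in Young Sham, 83.9 in Young Bleo, 84 in Aged Sham and 86.2 in Aged Bleo, and the largest limma difference, +3.20 for Aged Bleo against Young Sham, had an adjusted p of 0.296. The other Lamc1 region, at +108 kb in an intron, had a peak in 5 samples.

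Nidogen-1 and nidogen-2 are rod-shaped glycoproteins that link laminin to collagen IV. Both genes had a strong promoter that was open in all 18 samples. At Nid1 (chr13:13437325-13437787) it held 27 to 91 fragments, and at Nid2 (chr14:19750857-19751665) 40 to 116. Mean strength at the Nid2 promoter was 88 in both sham groups, 89 in Young Bleo and 87.5 in Aged Bleo.

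Away from the promoters the nidogen genes differed. Nid1 +54.8 kb (chr13:13492103-13492755), an intronic region with a forkhead match, was open in Young Sham 1 to 4 with 16, 26, 19 and 24 fragments and in Aged Sham 3 with 9. No bleomycin sample of either age had a peak there. Mean strength was 47.3 in Young Sham, 12.4 in Young Bleo, 26.8 in Aged Sham and 18.5 in Aged Bleo. Only 1 peak lay outside Young Sham, so the region was kept only through the group where it is high. Its values are a description, and no test against Young Sham is given for it. Aged Bleo against Aged Sham, in which 1 of 4 samples was open, passed neither test.

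Of the 4 Nid2 regions outside the promoter, none passed a test, and each was open in at least 3 of the 4 Young Bleo samples. Nid2 -45.4 kb (chr14:19705681-19705989) was open in all 4 Young Bleo samples, with 14, 22, 16 and 13 fragments, in Young Sham 1 and 4 with 12 and 11, in Aged Bleo 1 and 2 with 20 and 17 and in no Aged Sham sample. Nid2 -44.6 kb (chr14:19706481-19706839) had 25, 26, 26 and 24 fragments in Young Bleo and 16, 21, 16 and 13 in the 4 open Young Sham samples. These ranges did not overlap. The region was also open in 1 of 4 Aged Sham and 3 of 5 Aged Bleo samples. Nid2 -17.2 kb was open in 1 Young Sham, 3 Young Bleo and 1 Aged Bleo samples, and Nid2 +52.6 kb in 2, 3 and 2, with no Aged Sham peak at either.

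Perlecan is the large heparan sulfate proteoglycan of the basement membrane, and its gene Hspg2 (chr4:137468803-137570630, plus strand) held 6 regions. Of these, 4 intronic regions had no peak in any of the 9 sham samples, and so were kept through bleomycin peaks alone. The share of all regions with this pattern was not counted, and nothing is read from the number. The promoter (chr4:137468371-137469134) was open in all 18 samples with 27 to 194 fragments. Intronic +15.3 kb (chr4:137483812-137484320) was open in all but Aged Sham 3 and Aged Bleo 4.

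Hspg2 +20.3 kb (chr4:137488853-137489359), the region with the ERG core in its window, was open in all 4 Young Bleo samples with 32, 65, 58 and 41 fragments. Aged Bleo 1 and 2 had 47 fragments each, and the other 12 samples had no peak. Strength was 67.1 ± 5.1 in Young Bleo (SD, n = 4), and the limma difference from Young Sham was +53.04 (SE 7.83, adjusted p = 0.0013). This call stayed past the threshold under each alternative tried but the term for lane (+57.63, adjusted p = 0.104), and in each leave-one-out fit. Presence gave an exact Fisher p of 0.00794, the smallest that 4 against 5 samples allow, and an adjusted p of 0.535. Aged Bleo also differed from Young Sham in strength (+25.55, SE 7.38, adjusted p = 0.0476), but this call was lost when any sample other than Aged Bleo 3, 4 or 5 was left out, with adjusted p-values of up to 0.0993. It was +10.78 (adjusted p = 0.209) with the same number of peaks from each list and +2.52 (adjusted p = 0.653) with the common floor.

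Hspg2 +9.71 kb (chr4:137478311-137478707) had the same samples open, with 31, 44, 30 and 15 fragments in Young Bleo and 43 in both Aged Bleo 1 and Aged Bleo 2. Strength was 62.7 ± 13.7 in Young Bleo and 14 ± 3.33 in Young Sham, a limma difference of +48.62 (SE 10.55, adjusted p = 0.014), and the exact Fisher p was again 0.00794. Without Young Bleo 2 the adjusted p was 0.052. The difference was +25.71 (adjusted p = 0.158) with the same number of peaks from each list, +49.48 (adjusted p = 0.0629) with ranks taken within the peaks of each list and +8.84 (adjusted p = 0.503) with the common floor. In both regions the peak was present in Young Bleo 4 and absent from the 5 Young Sham samples of lane 8, and present in the 3 Young Bleo and absent from the 3 Aged Sham samples of lane 7. In lane 6 it was present in 2 of 5 Aged Bleo samples and absent from Aged Sham 4.

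The last Hspg2 regions, at +28.8 and +29.8 kb, showed the pattern more weakly. The first was open in Young Bleo 1 and 2 with 20 and 15 fragments and in Aged Bleo 1 and 2 with 21 and 13, and the second in Young Bleo 2 and 3 with 17 and 16 and in Aged Bleo 1 with 15. Each window held an ERG core and an AP-1 match. The aged samples with these peaks were those with the longest lists of their group, and the part of list length in this was not tested. No interaction was called at any Hspg2 region.

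Sparc (chr11:55394159-55420080, minus strand) held 8 regions. The region at its TSS (chr11:55419648-55420078) ends just inside the first exon and was open in 14 samples, with no peak in Young Bleo 4, Aged Sham 1, Aged Bleo 4 and Aged Bleo 5. Its strongest region, in an intron at +14.1 kb (chr11:55405517-55406450), was open in all 18 samples with 20 to 111 fragments and held both an ERG core and an AP-1 match. Sparc -8.25 kb (chr11:55428150-55428516), with an AP-1 match, was open in all 4 Aged Sham samples with 15, 11, 11 and 17 fragments and in Aged Bleo 2 with 21. It was the only region of the 76 called between Aged Bleo and Aged Sham by presence (exact Fisher p = 0.0476). Of the young samples, Young Sham 3 and 5 and Young Bleo 3 and 4 had a peak there.

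Set against all regions, these genes were called about as often. In Aged Sham, 0 of the 76 regions had a peak more often than in Young Sham and 5 (6.58%) less often, where all regions gave 0.264% and 4.9%. Between Young Bleo and Young Sham 2 were open more often (2.63%) and 3 less often (3.95%), where all regions gave 3.98% and 1.96%. Aged Bleo against Young Sham gave 0 and 4 (5.26%), with 0.201% and 3.01% of all regions. Aged Bleo had 0 more and 1 fewer (1.32%) than Aged Sham, with 0.475% and 0.41% of all regions, and the same counts against Young Bleo, with 0.123% and 2.44%. No region, here or among all 47338, passed Fisher's exact test after Benjamini-Hochberg adjustment, and the smallest adjusted p over the 5 comparisons was 0.535. Calls at p = 0.0476 in comparisons with a group of 4 mice were lost, at an exact Fisher p of 0.107 or 0.143, when most single samples of their groups were left out.

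For strength, limma called 1 of the 76 regions higher in Aged Sham than in Young Sham, with 1.14% of all regions called in either direction. In Young Bleo 3 were higher and 3 lower than in Young Sham (7.89%, against 5.39% of all regions), and in Aged Bleo 5 were higher and 2 lower than in Young Sham (9.21% against 7.19%). Aged Bleo against Young Bleo gave 1 call, with 1.48% of all regions called. That call is Col4a1 +90.1 kb, which was kept through Aged Bleo peaks alone. It and Lama5 +3.42 kb are 2 of the 5 higher in Aged Bleo than in Young Sham, and Nid1 +54.8 kb, kept through Young Sham peaks alone, is among those lower in Young Bleo and in Aged Bleo by strength and by presence. Nothing is read from the calls at these 3 regions. Between Aged Bleo and Aged Sham limma called 0, with 0.0951% of all regions called. The interaction gave 0 as well, with 0.144% called among all. An unadjusted p of at most 0.05 was reached by 14, 21 and 24 of the 76 regions for Aged Sham, Young Bleo and Aged Bleo against Young Sham (18.4%, 27.6% and 31.6%, where all regions gave 14.9%, 20.5% and 25.1%). It was reached by 8 for Aged Bleo against Aged Sham (10.5% against 10.6%), 13 for Aged Bleo against Young Bleo (17.1% against 14.6%) and 12 for the interaction (15.8% against 8.81%). These counts include the regions set aside above. For Aged Sham they include Col4a1 +90.1 kb, Col4a2 +83.5 kb and Lama5 +3.42 kb. Neither sham group had a peak there, and bottom ranks alone gave +6.38 at each. In all, 16 of the 76 regions were called by presence or strength in some comparison (21.1%), as were 18.7% of all regions, so the share was close to that of the genome. With lane as a term limma called none of the 76 regions in any contrast, for strength or for presence scored as 0 and 1. Few of all 47338 regions were called either. Strength gave 35, 91 and 0 for Aged Sham, Young Bleo and Aged Bleo against Young Sham. It gave 0 and 4 for Aged Bleo against Aged Sham and Young Bleo, and 1 for the interaction. Presence gave 259, 112, 22, 41 and 264 for the 5 comparisons in the same order.

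Strength was also averaged over the regions nearest to each TSS, giving 1 value for each of 17233 genes. By this rule the value of Col4a2 averages the 15 regions on the Col4a1 side of the shared promoter, and that of Col4a1 the promoter and 14 regions on the Col4a2 side. At this level Hspg2 was higher in Young Bleo than in Young Sham. Its values were 59.4, 63.6, 57.3 and 50.7 in Young Bleo and 31.6, 31.8, 35.4, 31.8 and 35.6 in Young Sham, with no overlap. Aged Sham lay at 36.0, 36.7, 32.1 and 38.3, and Aged Bleo at 67.1, 55.5, 39.8, 37.5 and 38.6. Means were 57.7 ± 5.37 in Young Bleo (SD, n = 4) and 33.3 ± 2.06 in Young Sham (SD, n = 5), a difference of +24.49. The difference was +26.26 with ranks taken within the peaks of each list, +5.82 with the common floor and +17.45 with lane as a term. One of the regions averaged, +29.8 kb, was kept only through its 2 Young Bleo peaks, and differed by +13.15. The gene-level difference is therefore a description, and no test is given for it.

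Nid2 rose in Young Bleo as well, to 65.0, 64.0, 57.4 and 49.7 from 50.8, 42.8, 41.6, 34.5 and 43.7 in Young Sham. The ranges overlapped through Young Bleo 4 and Young Sham 1. The limma difference was +16.35 (SE 4.21, adjusted p = 0.0324), and leaving out 1 of Young Sham 2, 3 or 4 or Young Bleo 1, 2 or 3 gave adjusted p-values from 0.0628 to 0.104. It was +18.04 (adjusted p = 0.141) with ranks taken within the peaks of each list and +2.05 (adjusted p = 0.0957) with the common floor, and with lane as a term it fell to +7.03 (adjusted p = 0.863). Nid1 had gene-level means of 52.3 ± 3.81 in Young Sham and 43.6 ± 3.44 in Aged Bleo (SD, n = 5 each), but 1 of the 4 regions averaged, +54.8 kb, was kept only through Young Sham peaks. Over the other 3 regions the means were 54 ± 4.68 and 52 ± 5.13, so that region carries most of the difference, which is given without a test.

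**Figure D5:**
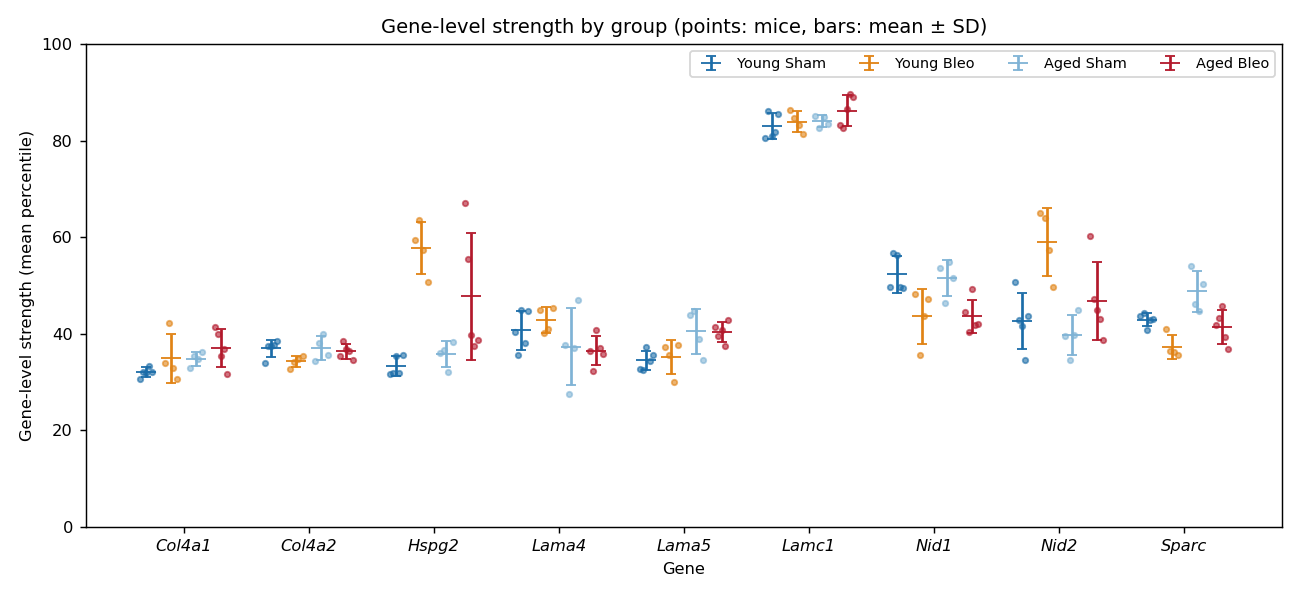
Gene-level strength (y axis, mean percentile over the regions nearest to the TSS of the gene, 0 to 100) of the 9 genes with a region, by group; points are mice and bars the mean ± SD. Hspg2 in Young Bleo, at 50.7 to 63.6, lies above all Young Sham and Aged Sham mice, and Lamc1, which rests on its promoter alone, stays near 84 in every group. Values for Col4a1 and Col4a2 average regions that lie mostly in the partner gene.

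The other genes were not called at this level. Lama4 had mean gene-level strengths of 40.7 in Young Sham, 42.8 in Young Bleo, 37.3 in Aged Sham and 36.5 in Aged Bleo, and those of Lama5 were 34.5, 35.1, 40.5 and 40.4 in this order. Sparc had 42.9, 37.3, 48.8 and 41.4, and its limma difference of -7.40 between Aged Bleo and Aged Sham did not pass (adjusted p = 0.182). Of 9 genes limma called 0 in Aged Sham against Young Sham (1.87% of all genes), 2 in Young Bleo (5.73%) and 1 in Aged Bleo (8.8%), each against Young Sham. It called 0 in Aged Bleo against Aged Sham (0.0928%) and against Young Bleo (0.911%) and 0 for the interaction (0.0754%). At an unadjusted p of at most 0.05 these 3 contrasts had 3, 2 and 0 of the 9 genes, with 11.8%, 16% and 9.56% of all genes. Aged Sham, Young Bleo and Aged Bleo against Young Sham had 2, 4 and 4, with 16.4%, 20.8% and 26.4% of all genes, and the 2 in Aged Sham were Lama5 and Sparc. The call in Aged Bleo is Nid1, and those in Young Bleo are Hspg2 and Nid2. Nothing is read from the calls at Nid1 and Hspg2.

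Related genes, in 3 lists, were examined in the same way. Of 22 further basement membrane components, 18 had a region and 7 a promoter open in all 18 samples. By presence, 5 of their 73 regions (6.85%) were open less often in Aged Sham than in Young Sham, with 4.9% of all regions, and 5 (6.85%) more often in Young Bleo, with 3.98% of all regions. In Aged Bleo 2 (2.74%) were open less often than in Young Sham, with 3.01% of all regions, 2 more often than in Aged Sham, with 0.475%, and 2 less often than in Young Bleo, with 2.44%. At the gene level Lama3, the laminin α3 chain, was higher than in Young Sham in Young Bleo (+12.43, SE 2.42, adjusted p = 0.00747) and in Aged Bleo (+10.33, adjusted p = 0.0141). Col18a1, the collagen that carries endostatin, differed by +11.60 and +9.21 in the same comparisons. Of the 8 regions averaged, 1 was kept only through 1 Young Bleo and 1 Aged Bleo peak, the groups where it is higher. Both differences are therefore descriptions, no test is given for them, and nothing is read from the calls. Col4a3, an alternative collagen IV chain, was lower in Aged Sham (-18.63, adjusted p = 0.0437) and Aged Bleo (-18.88, adjusted p = 0.0141), with a mean of 39 in Young Sham, 36.1 in Young Bleo, 20.4 in Aged Sham and 20.2 in Aged Bleo. None of its 3 regions had a peak in Aged Sham and 1 had a single peak in Aged Bleo, so the aged means are close to or at the bottom ranks of the lists. In Young Sham 2 of the 3 regions were open in all 5 samples. Tinagl1 had +7.38 in Aged Sham against Young Sham (adjusted p = 0.0492), but the sign turned with ranks within the peaks of each list (-4.00), the same number of peaks from each list (-0.44) and the common floor (-0.60). Against Young Sham, the median gene-level difference of the list was +2.74 for Young Bleo and +5.01 for Aged Bleo, where all genes had -0.14 and 0.04.

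Of 12 genes for the folding, modification and crosslinking of collagen IV, 10 had a region and 8 an always open promoter. By presence, 2 of their 37 regions (5.41%) were open less often in Aged Sham than in Young Sham, with 4.9% of all regions. In Young Bleo 1 was open more often and 1 less often (2.7% each, with 3.98% and 1.96% of all regions), and 1 was open more often in Aged Bleo than in Aged Sham (2.7%, with 0.475% of all regions). The 2 remaining comparisons had none. At the gene level Pxdn, the peroxidasin that crosslinks the collagen IV network, was the 1 gene called, lower in Young Bleo than in Young Sham (-7.08). Some of the 14 regions averaged were kept only through Young Sham peaks, the group where they are high. The difference is therefore a description, no test is given for it, and nothing is read from the call. Of 8 receptors for this matrix, all had a region, and 7 an always open promoter. Itgb4, the integrin β4 subunit, was higher in Aged Sham than in Young Sham (limma difference +15.78, adjusted p = 0.022). Its differences from Young Sham were +13.24 in Young Bleo and +15.18 in Aged Bleo. Of the 5 regions averaged, 1 was kept only through 1 Young Bleo and 1 Aged Bleo peak. The Young Bleo and Aged Bleo differences are therefore descriptions, no test is given for them, and nothing is read from their calls. By presence, 5 of 40 receptor regions (12.5%) were open more often and 1 (2.5%) less often in Young Bleo than in Young Sham, with 3.98% and 1.96% of all regions. In Aged Sham 1 was open more often and 1 less often than in Young Sham (2.5% each, with 0.264% and 4.9% of all regions). In Aged Bleo 1 was open more often than in Young Sham (2.5%, with 0.201%), 2 less often than in Young Bleo (5%, with 2.44%) and none differently from Aged Sham. The 11 gene-level calls in these 3 lists, which include those given above without a test, were all lost with lane as a term and with the common floor. Ranks within the peaks of each list lost 9, keeping both at Col4a3, the same number of peaks from each list lost 9, and a cover of at least 50% lost 7.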

How the data were processed

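Chromatin accessibility was measured by Omni-ATAC in sorted lung ECs, 1 library per mouse. The authors aligned read pairs with BWA to mm10 (the HiChIP pipeline), removed duplicates with Picard and ran MACS2 (FDR 1%) on each sample by itself. The deposited lists give each peak's fold enrichment, a ratio of summit pileup to local background with 1 fragment added to both. They also give the -log10 p and -log10 q that the authors obtained from MACS2. The deposited score column was not used here. Read counts were not used here, so the authors' count-based comparison could not be repeated. Separate lists are not scaled to each other, and ranks within a list were compared instead.

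The 10 genes, the lists of related genes and the tests were chosen with earlier results of these data known. Peaks on 21 nuclear chromosomes sharing at least 1 bp were joined (19 mitochondrial peaks were dropped), and joined regions found in at least 2 samples were used. Regions were annotated with 45756 RefSeq transcripts. Fragments at the summit were solved from fold enrichment and -log10 p, and were whole within 0.01 for at least 99.989% of the peaks with a -log10 p of up to 250.0. These numbers carry counting error, since PCR duplicates were removed without molecular identifiers. Presence was tested with Fisher's exact test, and strength and gene-level strength with limma 3.58.1 in R 4.3.3 over all 18 samples. Other steps used Python 3.11.15, pandas 2.3.3, scipy 1.17.1 and pysam 0.24.0. Scripts were tested on simulated data.

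Named regions were each promoter, each region called by presence or strength, and the strongest region of each gene. Lane numbers were read from a code in the list names, and that this code stands for the sequencing lane is an inference. Alternatives were a -log10 q or fold enrichment of at least 5, the top 21050 peaks of each list, regions in at least 3 samples, a cover of at least 50%, nearest TSS only, other rankings, a lane term, a replicate block and each sample left out. A common floor for the ranks, limma on presence scored as 0 and 1, and the removal of the 3 shortest lists were added after seeing the data.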

Additional observations from a re-analysis of the deposited data

Results flagged for a closer look

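Of 72 sets of 4 or 5 samples examined, 8 had 1 sample set apart from its group by Dixon's test, which chance alone would give in about 1 in 20 sets of continuous values. That rate does not hold for 5 of the 8, which are counts where the rest of the group is tied. The number of the 76 regions with a peak was 40 in Young Sham 5 and 48 to 50 in the other Young Sham samples. Gene-level strength of Col4a2 was 33.9 in Young Sham 1, below 37.5 to 38.5 in the rest of the group (a mean over regions on the Col4a1 side of the shared promoter), and that of Sparc was 40.9 in Young Bleo 1, above 35.6 to 36.4. Hspg2 had 1 region open in Aged Sham 3 against 2, and Nid2 had 2 in Aged Sham 4 against 1. In the Young Bleo group, Lama5 had 8 regions open in sample 1 against 9, Nid1 had 2 in sample 2 against 3, and Lamc1 had 2 in sample 4 against 1.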

How the results depend on the processing

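Counts below are of the 76 regions, or of 9 genes, and the cause of the changes was not tested. By presence, 5, 5, 4, 1 and 1 regions were called for Aged Sham, Young Bleo and Aged Bleo against Young Sham and for Aged Bleo against Aged Sham and Young Bleo. A -log10 q of at least 5 gave 0 for the last. A fold enrichment of at least 5 gave 3 for Aged Sham, 2 for Aged Bleo against Young Sham and 0 for Aged Bleo against Young Bleo. The top 21050 peaks of each list gave 0, 1 and 0 for Aged Sham against Young Sham, Aged Bleo against Young Sham and Aged Bleo against Aged Sham. A cover of at least 50% gave 0 and 2 for the last 2 comparisons. It lost 8 of the 16 presence calls, at Lama4 -49.3 kb (3), Lama4 +19.2 kb (2), Lama5 +17.7 kb, Sparc -8.25 kb and Col4a2 +80.2 kb. A fold enrichment of at least 5 lost 6 of them, a -log10 q of at least 5 lost 3 and the removal of the 3 shortest lists 6. Without the 3 shortest lists presence gave 2 for Aged Sham against Young Sham and 0 for each of the last 2 comparisons. Limma on 0 and 1 gave 0, 3, 3, 0 and 0, with the replicate block 0, 4, 1, 0 and 0, and with lane 0 in each.

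Strength gave 1, 6, 7, 0 and 1 calls in the same order and 0 for the interaction. All 47338 regions gave 538, 2552, 3404, 45 and 700, and 68 for the interaction. A fold enrichment of at least 5 gave 0, 2 and 0 for Aged Sham and Aged Bleo against Young Sham and Aged Bleo against Young Bleo, and the top 21050 peaks 0, 3, 0 and 0 for the 3 groups against Young Sham and for Aged Bleo against Young Bleo. Among all regions the first setting gave 540, 3075 and 622 of 43262, and the second 414, 1427, 1796 and 149 of 27849. For Aged Bleo against Young Bleo, regions in at least 3 samples gave 0, a cover of at least 50% 2, the replicate block 0 and the removal of the 3 shortest lists 0. Among all regions these settings gave 171 of 43456, 915 of 46921, 69 and 111. That removal gave 1 for Aged Bleo against Aged Sham, and 45 among all regions. For Aged Bleo against Young Sham a cover of at least 50% gave 11, and for Aged Sham ranking by -log10 p gave 0. All regions gave 4180 and 600. Ranks within the peaks of each list gave 2, 4 and 0 for Aged Sham and Aged Bleo against Young Sham and Aged Bleo against Young Bleo. All regions gave 1359, 3212 and 511. The common floor gave 0, 2 and 0 against Young Sham, where all regions gave 117, 674 and 996, and lane gave 0 in every contrast.

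Gene-level strength gave 0, 2, 1, 0 and 0. For Aged Bleo against Young Sham, a -log10 q of at least 5, the top 21050 peaks, regions in at least 3 samples, the removal of the 3 shortest lists, lane and the common floor gave 0. All genes gave 1510, 1250, 1536, 1248, 1 and 1100, and 1516 in the main fit. For Young Bleo, a fold enrichment of at least 5 and the removal of the 3 shortest lists gave 1, and ranks within each list, lane and the common floor gave 0. All genes gave 909, 1036, 332, 27 and 448, and 987 in the main fit. For Aged Bleo against Young Bleo, the top 21050 peaks and a cover of at least 50% gave 1, where all genes gave 92 and 233, and 157 in the main fit.

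With each sample left out in turn, presence gave 0 to 5, 3 to 5, 4 to 8, 0 to 1 and 0 to 1 calls, strength 0 to 2, 3 to 8, 2 to 12, 0 to 0 and 0 to 2, and gene-level strength 0 to 0, 1 to 2, 0 to 2, 0 to 0 and 0 to 0. The interaction gave 0 throughout. No named call at the 10 genes changed direction. Same-numbered samples did not deviate together (correlations from -0.223 to 0.232 over 25 pairs, median 0.00286), so the replicate numbers do not pair the samples. Peaks of 7 to 15 fragments lie near the lowest that the lists hold, and the part of depth in presence there was not tested.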
